A study of Mus musculus with 2 samples.

Results

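Compact tag-rich peaks are short stretches of the genome that gathered many sequenced fragments in a Smad4 chromatin immunoprecipitation from mouse forelimb. They were chosen from the deposited peak list as peaks on chromosomes 1 to 19 with at least 31 tags, where a tag is 1 sequenced read assigned to the peak, and a length of at most 1000 bp. The rule found 1316 peaks among 84788 autosomal peaks (1.55%, exact binomial 95% interval 1.47 to 1.64%) and among 90984 peaks in the whole list. They were set against 68636 comparison peaks, which are autosomal, at most 1000 bp long and hold 15 to 20 tags. The list comes from 1 library made with a Smad4 antibody from C57BL/6 forelimbs at embryonic days 12.5 and 13.5, with 1 library of input DNA (chromatin sequenced without immunoprecipitation) from the same strain, tissue and ages. No genetic change or treatment is given for either library. Crushed forelimbs hold many cell types, both ages are given together for each library, and the number of embryos behind each library is not stated in the labels. Positions are in build mm9 and are 1-based.

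Smad4 is the partner that receptor-activated Smad proteins share. It enters the nucleus with them after BMP or TGF-β receptors have been stimulated, and the complexes bind short DNA motifs, mostly together with other transcription factors. In the limb these signals act in cartilage condensation, in growth plate maturation and in the patterning of digits, and the study concerned Smad4 and Runx2, a transcription factor of chondrocyte hypertrophy. In ChIP-seq a factor bound at 1 place is known to give a narrow pile of reads with a summit, the base with the highest pile, near its centre. No gene is named here, because the list gives none and an mm9 annotation was not used. Sequences under the peaks and marker genes of the tissue were not analysed for the same reason.

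With 1 library a group there is no replicate and no test between conditions. Peaks are places of 1 library and not replicates, so every comparison below is a description, and its intervals cover counting error only. The total depth of both libraries is unknown. The rule used tags and length, so tags per kb, deposited fold, p score (10 times the negative log10 of the p-value that the peak caller gave) and false discovery rate, which come from the same tags, are given as descriptions of the chosen peaks. The fold, p score and false discovery rate are the values of the authors' peak caller.

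Most compact tag-rich peaks lay close to both limits of the rule. Exactly 31 tags were held by 348 of them (26.4%), 32 to 35 tags by 654 (49.7%), 36 to 50 tags by 246, 51 to 100 tags by 47 and more, up to 683 tags, by 21. Their median was 33 tags, against 16 tags in comparison peaks. Counting error (Poisson, exact, 95%) spans 21.1 to 44.0 tags around 31 tags and 12.2 to 30.9 tags around 20 tags, so single peaks on either side are separated only weakly by counting. Compact tag-rich peaks had a median length of 917.5 bp (quartiles 845 and 962 bp), against 576 bp (543 and 596 bp) in comparison peaks, although both classes share the limit of 1000 bp. They were the shorter 27.7% of the 4747 autosomal peaks with at least 31 tags. The other 3431 such peaks were longer than 1000 bp, with a median of 1236 bp.

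The packing of tags is partly fixed by these limits. The median of compact tag-rich peaks was 36.9 tags per kb (quartiles 34.1 and 41.01, lowest 31.03, highest 949), and that of comparison peaks was 28.1 (26.5 and 30.4, lowest 19.8, highest 57.0). A peak of 31 tags and 1000 bp already has 31 tags per kb, so the lower end is set by the rule. Longer peaks with at least 31 tags had a median of 33.5 tags per kb. Just inside the tag limit, peaks of 31 tags had a median of 34.0 tags per kb, and just outside, the 436 peaks of 30 tags and at most 1000 bp had 33.7. The 408 peaks of 951 to 1000 bp had a median fold of 1.63, and the 484 peaks of 1001 to 1050 bp with at least 31 tags had 1.46.

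The summit lay nearer to the centre of the peak in compact tag-rich peaks than in comparison peaks. Its median distance from the centre was 8.63% of the peak length (95% interval of the median 8.11 to 9.29%), against 16.1% (16.01 to 16.1%) in comparison peaks. In bp the distances were 78.0 and 90.5. The summit fell in the central band, between 0.4 and 0.6 of the length, in 727 compact tag-rich peaks (55.2%, 52.5 to 58.0%) and in 18200 comparison peaks (26.5%, 26.2 to 26.8%). Peaks of at most 1000 bp with 21 to 30 tags had nearly the values of compact tag-rich peaks. Their median distance was 8.87% of the length, and 54.3% had the summit in the central band. In longer peaks with at least 31 tags these were 18.3% and 20.9%. The summit lay in the first or last 0.2 of the length in 70 compact tag-rich peaks (5.32%) and in 26 comparison peaks (0.0379%). The second count is limited by length: comparison summits lay at least 104 bp from either edge, which leaves little room in the outer bands of a 576 bp peak. The summit was nearer the start than the end in 46.5% of compact tag-rich peaks (43.8 to 49.2%) and in 46.9% of comparison peaks (46.5 to 47.3%), a difference within counting error.

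Counted in bp from the edges, the summits of both classes showed a step near 200 bp. Whether the deposited summit counts from 0 or 1 is not stated, so single-base positions may be off by 1. In compact tag-rich peaks 69 summits lay 180 to 199 bp from the start and 10 lay 200 to 219 bp from it, while in comparison peaks these numbers were 13818 and 1055. From the end, 106 summits lay at 180 to 199 bp and 19 at 200 to 219 bp in compact tag-rich peaks, against 15041 and 2658 in comparison peaks. At single bases, 11 compact tag-rich peaks had the summit at base 198, 1 at base 199 and 0 at base 200 from the start, and comparison peaks had 967, 958 and 6 there. From the end the drop came later as counted here. Compact tag-rich peaks had 4 at base 200, 1 at base 201 and 0 at base 202, and comparison peaks had 1045, 637 and 10. A summit counted from 0 would add 1 to distances from the start and take 1 from those from the end. Both drops would then lie at the same base. No difference between start and end is therefore read from the drops or from the counts at 200 to 219 bp. A summit under 200 bp from either edge was found in 216 compact tag-rich peaks (16.4%, 14.5 to 18.5%) and in 47579 comparison peaks (69.3%, 69.0 to 69.7%). Under 150 bp there were 4 compact tag-rich peaks (0.304%) and 3022 comparison peaks (4.40%). Both classes thus had the step, and over all lengths a smaller share of compact tag-rich peaks lay below it. At equal length this order turned round from 701 bp on. At 701 to 800 bp a summit under 200 bp from an edge was found in 29.7% of compact tag-rich peaks (21.9 to 38.4%) and in 4.05% of comparison peaks (3.12 to 5.16%), and at 801 to 900 bp in 10.2% (7.22 to 13.8%) and in 0 of 137 (exact interval 0 to 2.66%). Weighted to equal lengths the shares were 16.1% and 4.41%. These weighted shares have no interval and rest on few comparison peaks at the greatest lengths, only 2 from 901 to 1000 bp.

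**Figure D1:**
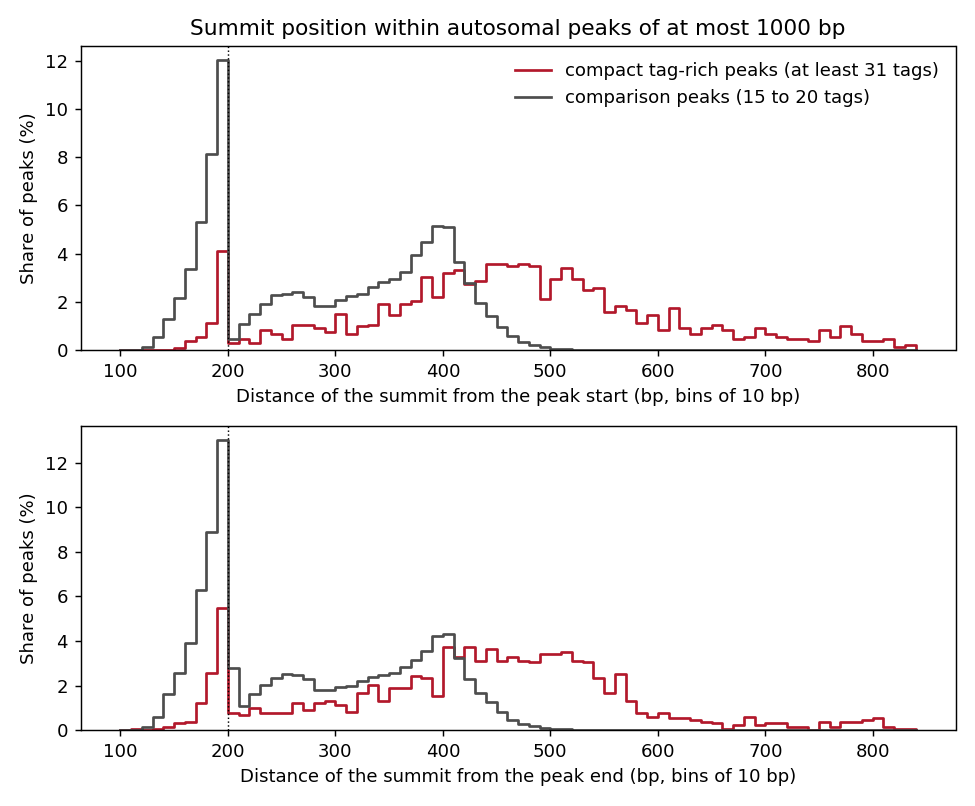
Share of autosomal peaks of at most 1000 bp (vertical axis, %) by the distance of the summit from the peak start (upper panel) and from the peak end (lower panel), in bins of 10 bp. Compact tag-rich peaks (red, 1316) and comparison peaks of 15 to 20 tags (grey, 68636) both pile up just below 200 bp (dotted line), and the red curve extends farther to the right, up to 838 bp from the start.

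The position of the summit depended on peak length, and from 701 bp on the order of the classes turned round at equal length. In peaks of at most 600 bp the central band held 13 of 23 compact tag-rich summits (56.5%, 34.5 to 76.8%) and 23.8% of comparison summits, and at 601 to 700 bp it held 34.0% (21.2 to 48.8%) and 32.1%. Among peaks of 701 to 800 bp the summit was in the central band in 38 of 128 compact tag-rich peaks (29.7%, 21.9 to 38.4%) and in 1225 of 1531 comparison peaks (80.0%, 77.9 to 82.0%). At 801 to 900 bp it was there in 202 of 354 compact tag-rich peaks (57.1%) and in 135 of 137 comparison peaks (98.5%). With comparison peaks weighted to the lengths of the 899 compact tag-rich peaks that share a 50 bp length bin with them, the shares were 55.3% in compact tag-rich peaks and 92.5% in comparison peaks. Some of those bins hold few comparison peaks, the smallest 2. At 901 to 1000 bp, where 761 compact tag-rich peaks but only 2 comparison peaks lie, the 719 peaks with 21 to 30 tags served instead, a choice made after the values were seen. The central band held 60.1% of compact tag-rich peaks (56.5 to 63.6%) and 85.1% of peaks with 21 to 30 tags (82.3 to 87.6%). A summit under 200 bp from an edge was found there in 13.9% of compact tag-rich peaks (11.5 to 16.6%) and in 3.20% of peaks with 21 to 30 tags (2.04 to 4.76%). The more central summits of the class as a whole were thus not seen at equal length from 701 bp on. There, peaks with more tags had less central summits than peaks of like length with fewer tags. At most 600 bp the order was that of the class as a whole. The central share of compact tag-rich peaks did not rise steadily with length.

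Folds were spread widely inside the class. The median deposited fold was 1.71 (quartiles 1.36 and 2.21, lowest 0.62, highest 14.79) in compact tag-rich peaks and 1.45 (1.23 and 1.72, lowest 0.66, highest 4.87) in comparison peaks. A fold of at least 2 was given to 458 compact tag-rich peaks (34.8%, 32.2 to 37.4%) and to 7610 comparison peaks (11.1%), with 13.9% of all autosomal peaks as background. At least 3-fold were 82 compact tag-rich peaks (6.23%, 4.99 to 7.68%) and 338 comparison peaks (0.492%), with 0.810% of all autosomal peaks as background. In peaks of at most 1000 bp with 21 to 30 tags these shares were 29.0% and 1.99%. In longer peaks with at least 31 tags they were 13.4% and 1.28%. The rule chose on tags, which also enter the fold, so nothing is read from these shares. Below 1 lay 64 compact tag-rich peaks (4.86%) and 3012 comparison peaks (4.39%), with 4.36% of all autosomal peaks as background. Of the 17 autosomal peaks of at least 5-fold, 11 were compact tag-rich. A false discovery rate of at most 1% was given to 93.3% of compact tag-rich peaks and to 73.7% of comparison peaks, with 77.3% of all autosomal peaks as background. The share was much the same, 92.3%, in peaks of at most 1000 bp with 21 to 30 tags. In longer peaks with at least 31 tags it was 92.9%.

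The fold varied at every level of tags. Over the 1316 compact tag-rich peaks, all from 1 library, Spearman's rho with the fold was 0.10 for tags, 0.23 for tags per kb and -0.20 for length. The rule restricts tags and length, and most of these peaks hold 31 to 35 tags, so these values describe the chosen range and not how tags and fold relate in the list. The median fold was 1.67 at 31 tags, 1.70 at 32 to 35 tags, 1.80 at 36 to 50 tags, 2.29 at 51 to 100 tags and 1.49 above 100 tags. Of the 21 peaks above 100 tags, 11 were below 1.5-fold and 3 at least 3-fold. The 10 highest by fold and the 10 highest by tags had 1 peak in common, while the 10 highest by tags and by tags per kb shared 9. Together with the 10 highest by p score, the rankings named 21 peaks, none of them in a 1 Mb window of at least 100 peaks.

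**Figure D2:**
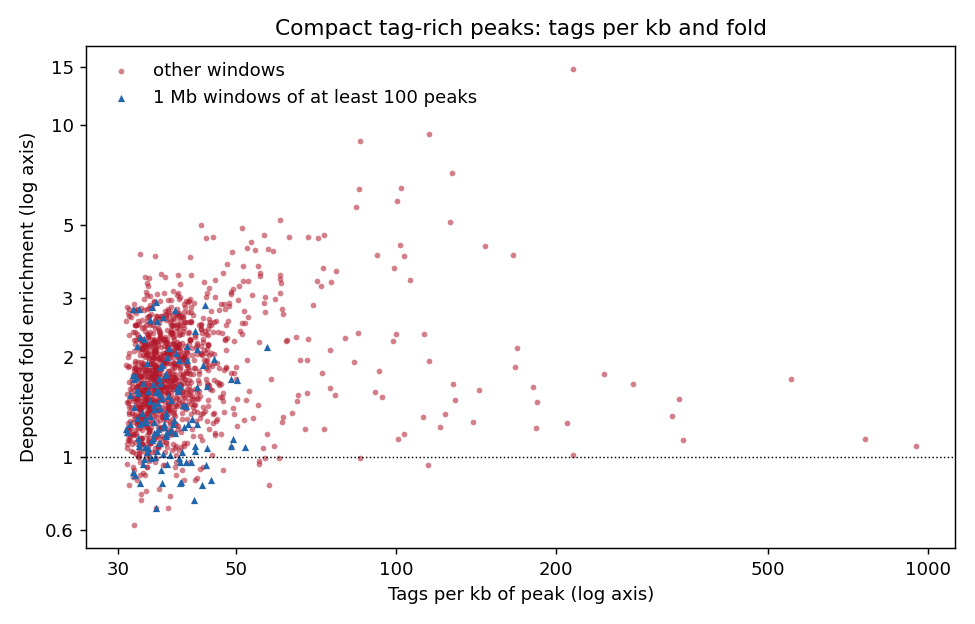
Deposited fold enrichment (vertical, log axis) against tags per kb of peak (horizontal, log axis) for the 1316 compact tag-rich peaks. Blue triangles are the 132 peaks in 1 Mb windows of at least 100 peaks, none of which reached 3-fold, and the points with the most tags per kb on the right lie near a fold of 1 (dotted line) to 1.71.

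The peaks leading by fold were places with 52 to 185 tags on 7 chromosomes, 1210 to 78489 bp from their nearest neighbours. Chromosome 10 at 110348120 to 110348979 stood first, with 185 tags (Poisson 95% interval 159 to 214), 215 tags per kb and a fold of 14.79. Its summit was 465 bp from the start of an 860 bp peak, close to the centre, and the next peaks of the list were 7245 bp before and 10771 bp after it. It was the single peak among the first 10 in all of the rankings. Chromosome 17 at 56339114 to 56339660 was shorter, 547 bp, and held 63 tags (48.4 to 80.6) at 9.37-fold. Its summit lay 191 bp from the end, just below the 200 bp step. Chromosome 2 at 60240300 to 60241236 held 80 tags (63.4 to 99.6) at 8.97-fold, with its nearest neighbour 17886 bp away.

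The others by fold differed mainly in their surroundings. Chromosome 12 at 116610313 to 116611066 held 96 tags (77.8 to 117) at 7.18-fold and stood between 2 broader peaks. The peak 1300 bp before it held 60 tags over 1900 bp at 1.41-fold, and the one 1210 bp after it held 69 tags over 1644 bp at 1.20-fold. Chromosome 17 also held the peak at 4626017 to 4626996, with 100 tags (81.4 to 122) and 6.48-fold, which had no neighbour within 23859 bp. Chromosome 16 at 93789060 to 93789965 held 77 tags (60.8 to 96.2) at 6.43-fold, 2319 bp after a peak of 15 tags. Chromosome 13 contributed the peaks at 9397376 to 9397963, with 59 tags and 5.89-fold, and at 13952644 to 13953502, with 52 tags and 5.18-fold. The most isolated of them was chromosome 15 at 87797929 to 87798689, with 64 tags, 5.66-fold and 78489 bp to its nearest neighbour. Chromosome 17 at 68090310 to 68091234 closed the ranking with 117 tags (96.8 to 140) and 5.11-fold. The summit was under 200 bp from an edge in 3 of these 10 peaks.

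The peaks leading by tags held 171 to 683 tags, and 9 of the 10 were below 2-fold. Chromosome 2 at 98504882 to 98505601 held 683 tags (633 to 736) in 720 bp, 949 tags per kb, at 1.08-fold. It filled the space between 2 longer peaks, 108 bp after one of 3730 tags at 0.99-fold and 243 bp before one of 3661 tags at 0.79-fold. Next came 398 tags (360 to 439) at 1.71-fold on chromosome 4, from 70038897 to 70039618. Chromosome 13 at 77577976 to 77578475 packed 381 tags (344 to 421) into 500 bp, 762 tags per kb, at 1.13-fold. Each of these 3 had an FDR of 0% and was also among the 10 highest by p score, at 1341.84 to 1559.3. A high p score therefore stood beside folds as unlike as 1.08 and 14.79.

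Apart from the 14.79-fold peak on chromosome 10, the further peaks of this ranking had folds below 2 and p scores of 79.31 to 506.66. Chromosome 18 at 40467178 to 40468170 held 328 tags (293 to 365) at 1.33-fold, with a p score of 260.65. Chromosome 14 at 9118834 to 9119747 held 311 tags (277 to 348) at 1.49-fold. Chromosome 16 at 10974643 to 10975519 held 244 tags (214 to 277) at 1.65-fold. Chromosome 19 gave 204 tags (177 to 234) at 45723974 to 45724923, at 1.01-fold and a p score of 86.39, and 173 tags (148 to 201) at 1.77-fold from 23431766 to 23432469. Chromosome 4 at 64158596 to 64159529 held 171 tags (146 to 199) at 1.22-fold, with a p score of only 79.31 and an FDR of 1.03%. By tags per kb one more peak entered, chromosome 9 at 123782065 to 123782478, whose 143 tags (121 to 168) in 414 bp came to 345 tags per kb at 1.12-fold. By p score the additional peak was chromosome 4 at 152526816 to 152527803, with 164 tags (140 to 191), 4.06-fold and a peak of 15 tags only 78 bp before it.

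Compact tag-rich peaks lay closer to other peaks of the list than comparison peaks did, but longer peaks with at least 31 tags lay closer still. The median distance to the nearest other autosomal peak of any size, edge to edge, was 3064 bp (95% interval of the median 2646 to 3604 bp) for compact tag-rich peaks and 8216 bp (8096 to 8334 bp) for comparison peaks. Another peak lay within 1000 bp of 380 compact tag-rich peaks (28.9%, 26.4 to 31.4%) and of 8847 comparison peaks (12.9%, 12.6 to 13.1%). Within 5000 bp the shares were 58.7% (55.9 to 61.3%) and 37.6% (37.3 to 38.0%), and within 100 bp they were 5.85% and 1.70%. Peaks on both sides within 1000 bp were found for 46 compact tag-rich peaks (3.50%) and 782 comparison peaks (1.14%). Within 100000 bp nearly every peak of both classes had a neighbour, 99.8% and 99.7%. Longer peaks with at least 31 tags had a median distance of 1440 bp (1348 to 1566 bp), and 72.8% had a peak within 5000 bp. Peaks of at most 1000 bp with 21 to 30 tags had 5543 bp and 48.1%. Closeness was thus not particular to compact tag-rich peaks.

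**Figure D3:**
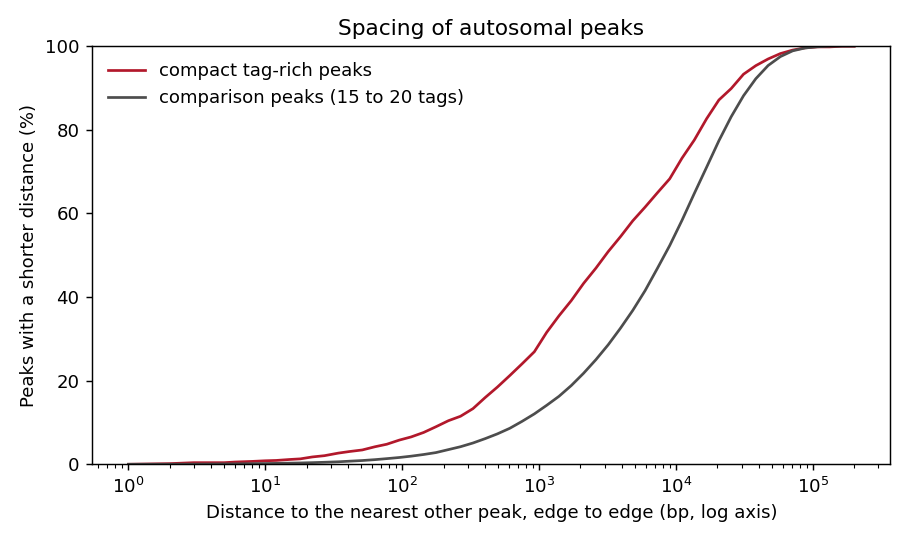
Cumulative share of peaks (vertical axis, %) by distance to the nearest other peak, edge to edge (horizontal, log axis). The curve of the 1316 compact tag-rich peaks (red) runs above that of the 68636 comparison peaks (grey), with medians of 3064 and 8216 bp.

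The closeness went with peak length. Compact tag-rich peaks of at most 700 bp, 73 in all, had a median distance of 10414 bp (7565 to 15007 bp), against 8275 bp (8162 to 8393 bp) for comparison peaks of that length. At 701 to 800 bp the medians were 4917 bp (3662 to 7968 bp) and 5783 bp (5061 to 6427 bp), and at 801 to 900 bp 3463 bp (2765 to 4493 bp) and 5326 bp (3146 to 8676 bp). At 901 to 1000 bp compact tag-rich peaks had 2157 bp (1818 to 2636 bp), and peaks with 21 to 30 tags had 2417 bp (2157 to 3052 bp). The intervals of these medians overlapped, which is no test of a difference. By the share with a peak within 5000 bp, compact tag-rich peaks of at most 700 bp had fewer close neighbours, 24.7% (15.3 to 36.1%), against 37.4% (37.02 to 37.8%) of comparison peaks, the opposite of the class as a whole. At 701 to 800 bp these shares were 50.0% (41.04 to 58.96%) and 47.3% (44.8 to 49.8%), and at 801 to 900 bp 56.8% (51.4 to 62.0%) and 48.9% (40.3 to 57.6%), with overlapping intervals. The 136 compact tag-rich peaks with at least 41 tags had a median distance of 7292.5 bp, and 41.2% of them (32.8 to 49.9%) had a peak within 5000 bp, a share that includes the 37.6% of comparison peaks in its interval.

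Neighbours with many tags were more common around compact tag-rich peaks. The nearest peak held at least 31 tags for 191 of the 1316 (14.5%, 12.7 to 16.5%), against 3263 of the 68636 comparison peaks (4.75%, 4.60 to 4.92%). Of these 191 neighbours 166 were longer than 1000 bp and 25 were compact tag-rich themselves. Where the neighbour was under 1000 bp away, it had at least 31 tags in 22.4% of cases (18.3 to 26.9%) for compact tag-rich peaks and in 9.57% (8.97 to 10.2%) for comparison peaks. Even so, 60.8% of those close neighbours of compact tag-rich peaks held 15 to 20 tags.

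Compact tag-rich peaks seldom stood side by side. Another compact tag-rich peak lay within 10000 bp of 74 of them (5.62%, 4.44 to 7.01%), and one lay within 10000 bp of 1314 comparison peaks (1.91%, 1.81 to 2.02%). Within 1000 bp these numbers were 6 (0.456%) and 260 (0.379%). Longer peaks with at least 31 tags had a compact tag-rich peak within 10000 bp more often, in 11.6% of cases (10.5 to 12.7%). The median distance to the nearest compact tag-rich peak was 507820 bp for compact tag-rich peaks and 694056 bp for comparison peaks. Only 3 adjacent pairs were under 1000 bp apart. Peaks of 34 and 31 tags at 129772905 and 129774362 on chromosome 1, and of 32 and 33 tags at 36708225 and 36709661 on chromosome 14, were each separated by 545 bp, with folds of 2.14 and 2.05 in the first pair and 2.31 and 1.43 in the second. On chromosome 4 the pair at 61274543 and 61276060, 574 bp apart, held 35 and 33 tags at folds of 0.95 and 0.83.

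Along the genome, part of the class was gathered in a few stretches. Of 2416 autosomal 1 Mb windows with a peak, 922 held a compact tag-rich peak and 696 held exactly 1. At the other end 19 windows held at least 5, with 158 compact tag-rich peaks in all, and 13 of these 19 were also among the 19 windows with at least 100 peaks of any size. Windows of at least 100 peaks held 132 compact tag-rich peaks (10.0%, 8.46 to 11.8%) and 1567 comparison peaks (2.28%, 2.17 to 2.40%). They held 3.44% of all autosomal peaks and 5.34% of peaks of at most 1000 bp with 21 to 30 tags. Longer peaks with at least 31 tags lay there more often than compact ones, 17.5% of them (16.3 to 18.8%). At 901 to 1000 bp the share was 10.9% of compact tag-rich peaks (8.78 to 13.3%) and 8.07% of peaks with 21 to 30 tags (6.18 to 10.3%), with overlapping intervals.

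The largest gatherings had low folds. Chromosome 14 from 4000001 to 9000000 held 43 compact tag-rich peaks with 31 to 40 tags and a median fold of 1.43, among 939 peaks of which 498 were comparison peaks. Chromosome 4 from 60000001 to 62000000 held 29, with 31 to 36 tags, a median fold of 1.25 and a median distance of 660 bp to the next peak. Chromosome 13 from 65000001 to 67000000 held 23, with a median fold of 1.18, and chromosome 14 from 42000001 to 45000000 held 22, with a median fold of 1.34. None of the compact tag-rich peaks in these 4 stretches reached 3-fold, the highest being 2.87 on chromosome 14. Over all autosomal peaks the median fold was 1.48. Over all peaks of each 1 Mb window it was 1.18 to 1.28 in the stretches other than the first. Low folds were thus not particular to compact tag-rich peaks in those. In the windows of the first stretch, chromosome 14 from 4000001 to 9000000, it ran from 1.27 to 1.55, on both sides of 1.48. These stretches were picked for their many compact tag-rich peaks, so their counts are a description.

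Outside the dense windows a smaller gathering had mixed folds. Chromosome 12 from 116000001 to 117000000 held 8 compact tag-rich peaks among 57 peaks. Their folds were 0.85 to 7.18, with 34 to 37 tags in 7 of them and 96 tags in the eighth, the 7.18-fold peak described above. Chromosome 12 from 20000001 to 21000000 held 6, with folds of 0.70 to 3.33. Chromosome 7 from 12000001 to 13000000 held 6 with folds of 0.76 to 1.56, none of at least 2-fold.

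Within the class, fold and place went together. In windows of at least 100 peaks lay 20 of the 64 compact tag-rich peaks below 1-fold (31.2%, 20.2 to 44.1%), 59 of 391 from 1 to below 1.5 (15.1%, 11.7 to 19.03%), 34 of 403 from 1.5 to below 2 (8.44%, 5.91 to 11.6%), 19 of 376 from 2 to below 3 (5.05%, 3.07 to 7.78%) and 0 of 82 of at least 3-fold, which allows a share of up to 3.66% by a limit of 3 counts (4.40% by the exact interval). Comparison peaks in the same fold classes had 3.88%, 2.32%, 2.04%, 2.23% and 2.07% there, a much flatter course. Compact tag-rich peaks of at least 3-fold were also farther from other peaks, with a median distance of 10317 bp and a neighbour within 1000 bp in 7 of 82 (8.54%, 3.50 to 16.8%), against 14585.5 bp and 5.92% (3.65 to 8.99%) in comparison peaks of at least 3-fold. They were shorter than the rest of the class, with a median of 788.5 bp, and held 52.5 tags per kb at the median. Their summit was under 200 bp from an edge in 23 of 82 (28.0%, 18.7 to 39.1%), 21 of which were among the 44 peaks of at most 800 bp.

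**Figure D4:**
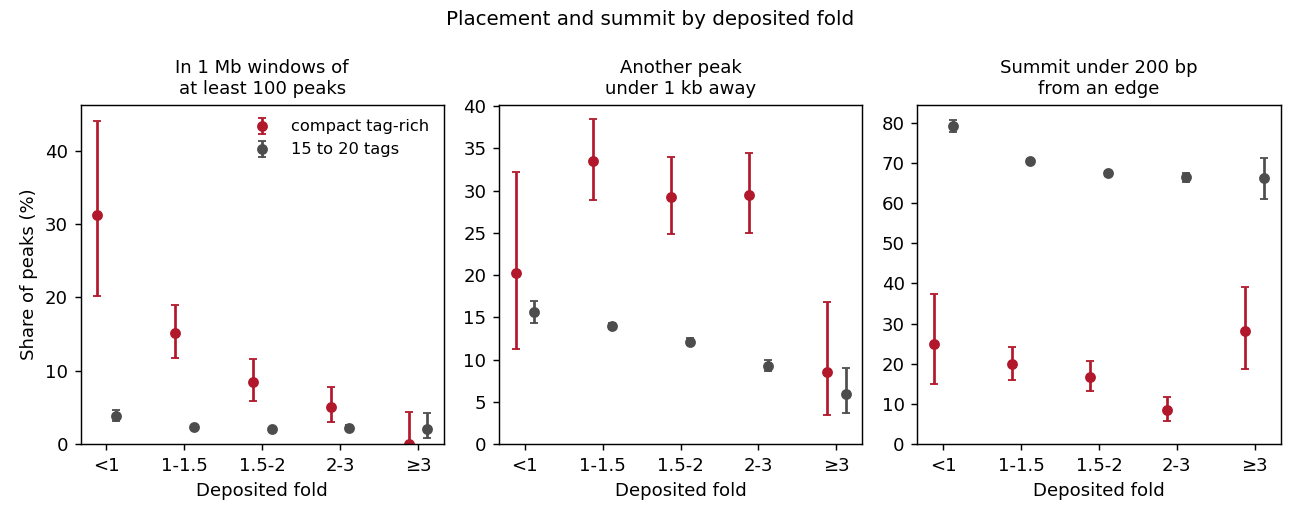
Share of peaks (vertical axes, %) in windows of at least 100 peaks, with a neighbour under 1 kb away, and with the summit under 200 bp from an edge, by class of deposited fold (horizontal axes). Points are shares and bars exact binomial 95% intervals, for compact tag-rich peaks (red) and comparison peaks (grey); the red share in dense windows runs from 31.2% below 1-fold to 0% at 3-fold and above.

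Chromosomes differed in how many compact tag-rich peaks they held. Per Mb of the span between the first and the last peak, the density ran from 0.328 on chromosome 15 (33 peaks, Poisson 95% interval 0.226 to 0.461 per Mb) to 1.09 on chromosome 14 (133 peaks, 0.911 to 1.29 per Mb), with a median of 0.488 over the 19 autosomes. The density of comparison peaks varied much less, from 25.1 per Mb on chromosome 11 to 33.1 per Mb on chromosome 14. As a share of all peaks of the chromosome, compact tag-rich peaks made up 2.40% on chromosome 14 (2.02 to 2.84%), 2.23% on chromosome 13, 2.13% on chromosome 16 and 1.01% on chromosome 15 (0.695 to 1.41%). Over the 19 chromosomes, which share 1 library, the densities of compact tag-rich and comparison peaks had a Spearman's rho of 0.32 and a Pearson's r of 0.67. With compact tag-rich peaks counted only outside windows of at least 100 peaks, rho was 0.29 and r 0.39. The density of comparison peaks was still taken over the whole span there.

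The high density of chromosome 14 lay in its dense windows, while that of chromosome 16 did not. Of the 133 compact tag-rich peaks on chromosome 14, 68 lay in its 9 windows of at least 100 peaks, and outside them the density was 0.574 per Mb. Chromosome 13 had 0.642 per Mb outside its dense windows, against 0.827 per Mb in all. Chromosome 16 had no such window, and its 72 compact tag-rich peaks (0.756 per Mb, 0.591 to 0.952) were the densest of the autosomes once those windows were left out. They were spread over 49 windows with at most 4 in one, and 4 to 11 lay in each of 10 equal parts of the chromosome. A fold of at least 2 was given to 44.4% of those on chromosome 16 and to 27.1% of those on chromosome 14. On chromosome 4, with 109 compact tag-rich peaks, it was 19.3%, the lowest share of the autosomes, and on chromosome 18 it was 48.8%, the highest. The shares over all peaks of each chromosome are not given here, so these differences cannot be ascribed to compact tag-rich peaks alone.

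**Figure D5:**
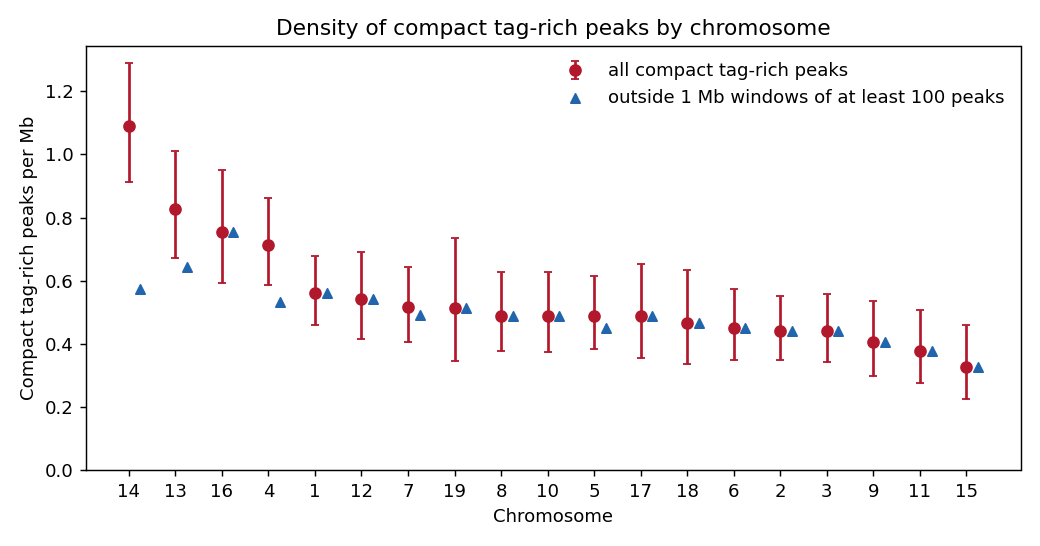
Compact tag-rich peaks per Mb (vertical axis) on the 19 autosomes, ordered by density. Circles with exact Poisson 95% intervals count all 1316 peaks and triangles those outside 1 Mb windows of at least 100 peaks; chromosome 14 has 1.09 per Mb in all and 0.574 outside those windows, and chromosome 16 keeps 0.756.

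Both chromosome ends were compared as well. The first 5 Mb of the span, which on mouse chromosomes lie next to the centromere, held 102 compact tag-rich peaks (7.75%, 6.36 to 9.33%) and 3442 comparison peaks (5.01%, 4.85 to 5.18%). Chromosome 14 alone gave 37 of the 102, and without it the shares were 5.49% (4.27 to 6.95%) and 4.57% (4.41 to 4.74%), a difference within counting error. With chromosome 14, the first 5 Mb held 9.30% of longer peaks with at least 31 tags (8.35 to 10.3%). They held 6.93% of peaks of at most 1000 bp with 21 to 30 tags (6.46 to 7.41%). The higher share was thus not particular to compact tag-rich peaks. The last 5 Mb held 59 compact tag-rich peaks (4.48%, 3.43 to 5.75%) and 2456 comparison peaks (3.58%, 3.44 to 3.72%). In 10 equal parts of the span the share of compact tag-rich peaks was 15.3% in the first part, 7.22 to 12.1% in the parts between and 10.6% in the last. Comparison peaks had 11.9% in the first part, 9.10 to 10.5% between and 8.57% in the last.

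Within the compact tag-rich class, the peaks with the most tags stood out at the distal end. Longer peaks with at least 31 tags, whose median was 42 tags, did not. The last 5 Mb held 3.38% of them (2.80 to 4.04%), and their share from 41 tags on is not given here. Of the 136 compact tag-rich peaks with at least 41 tags, 15 lay in the last 5 Mb (11.03%, 6.31 to 17.5%), against 44 of 1180 with 31 to 40 tags (3.73%, 2.72 to 4.97%) and 3.58% of comparison peaks. The 15 lay on 11 chromosomes, at most 3 on one, and their folds ran from 1.12 to 7.18 with a median of 2.23. They included the 7.18-fold peak on chromosome 12, the 6.43-fold peak on chromosome 16 and the 4.06-fold peak on chromosome 4 given above. The limit of 41 tags was one of the alternative settings, and this contrast was noticed among several. Comparison peaks of at least 3-fold also lay there more often than comparison peaks in all, 33 of 338 (9.76%, 6.82 to 13.4%), while compact tag-rich peaks of at least 3-fold had 5 of 82 (6.10%, 2.01 to 13.7%).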

How the data were processed

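One Smad4 library and 1 input library were compared by the authors, who deposited 1 peak list. The submitters' processing notes name BWA, SICER, MACS and build mm9, without versions, roles or settings, and per the file headers the columns follow the layout that MACS writes. Counts of tags per peak are whole numbers deposited by the authors. The p score is a score deposited by the authors, the fold a ratio deposited by the authors with no stated background, and the FDR a percent deposited by the authors. Start, end, length and summit are in bp. Read depth is unknown. Genes and sequence were not used, because no mm9 genome or annotation was used here, so the planned gene and motif results were not run.

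Distances run edge to edge to the nearest autosomal peak. The summit column was taken as the base counted from the peak start. Windows are 1 Mb by peak start. Shares have exact binomial (Clopper-Pearson), counts exact Poisson and medians order-statistic 95% intervals. Peaks named are the 10 highest by fold, tags, tags per kb and p score, and the closest pairs. Members and classes were chosen with earlier results of these data known. Alternatives changed the tag, length and FDR limits, the comparison class, dense windows, close peaks and the distance measure. Procedures were tested on simulated data. Intervals came from scipy 1.17.1, tables from pandas 2.3.3 and numpy 2.4.6 and figures from matplotlib 3.10.9, under Python 3.11.15.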

Additional observations from a re-analysis of the deposited data

Results flagged for a closer look

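Peaks within the same limits of tags and length also lay on the sex chromosomes, which the comparisons left out. X held 155 of them among its 6143 peaks (2.52%, exact binomial 95% interval 2.15 to 2.95%), 0.947 per Mb. Their median fold was 1.52, at least 2-fold were 29 (18.7%), and 94 (60.6%) lay in 1 Mb windows of at least 100 peaks. The same shares over all peaks of X are not given here. Y held 8 among 53 peaks, with a highest fold of 4.67.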

How the results depend on the processing

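Apart from numbers of peaks, values here are differences in percentage points between shares, or ratios of medians, compact tag-rich peaks against comparison peaks. As deposited they were 0.54 for the summit's distance from the centre, 28.7 points for the central band, 1.31 for tags per kb, 0.373 for the distance to the nearest peak, 21.04 points for a peak within 5 kb, 3.71 points for a compact tag-rich peak within 10 kb, 7.75 points for dense windows, 2.74 and 0.905 points for the first and last 5 Mb, 3.31 for the densest over the sparsest chromosome, and 23.7 and 5.74 points for folds of at least 2 and 3. Values not printed below kept their direction; the number of peaks and the chromosome ratio could not change where only the comparison class was altered. Where nothing else is said, the cause was not tested.

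With at least 26 tags, 4045 peaks gave 0.477 for the summit distance, 34.5 points for the central band and 1.22 for tags per kb. They gave 18.3 points within 5 kb, 7.22 points within 10 kb and 3.22 points for 3-fold. The last 5 Mb turned round, at -0.414 points, with an interval that includes no difference (-0.930 to 0.187). With at least 41 tags, 136 peaks gave 2.32 for tags per kb, 0.888 for the nearest peak and 3.55 points within 5 kb. The share within 10 kb turned round, at -0.146 points, with an interval that includes no difference (-0.177 to 2.60). Dense windows gave 0.658 points, the first and last 5 Mb 0.132 and 7.45 points, and chromosomes 7.84. The values for 2-fold and 3-fold were 34.5 and 25.98 points.

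With at most 750 bp, 131 peaks gave 0.931 for the summit distance, 6.85 points for the central band and 1.79 for tags per kb. The nearest peak (1.09, interval 0.781 to 1.47) and a peak within 5 kb (-3.94 points, -11.5 to 4.52) turned round. So did a compact tag-rich peak within 10 kb (-0.115 points, -0.143 to 2.73). These intervals all include no difference. Dense windows gave 2.31 points, the last 5 Mb 2.54, chromosomes 13.7, and 2-fold and 3-fold 43.3 and 24.7 points. With at most 1500 bp, 3836 peaks gave 0.937, 6.30 points, 1.21, 0.250 for the nearest peak, 28.5 points within 5 kb, 17.4 points within 10 kb, 10.9 points for dense windows, and 10.3 and 2.58 points for 2-fold and 3-fold.

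Against peaks of exactly 15 tags the central band gave 32.97 points, tags per kb 1.39 and 2-fold 27.5 points. Against 21 to 30 tags the summit distance was 0.974, the central band 0.907 points, tags per kb 1.15, the nearest peak 0.553, a peak within 5 kb 10.6 points, a compact tag-rich peak within 10 kb 2.12 points, dense windows 4.69 points, the first 5 Mb 0.824 points, and 2-fold and 3-fold 5.82 and 4.25 points. With the FDR at most 1%, tags per kb gave 1.28. Without dense windows, the 10 kb share gave 1.99 points and the first 5 Mb 1.09, and the dense-window share could give no value. Without peaks under 1 kb from another, the central band gave 25.7 points, the nearest peak 0.685, the 5 kb share 13.5 points, the 10 kb share 2.56 points and 3-fold 7.48 points. Summit to summit, the nearest peak gave 0.441. Weighted to equal lengths, the central band turned round, at -37.2 points, without an interval and with only 2 comparison peaks from 901 to 1000 bp.

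Chosen after seeing the data were 2 settings. The first had both classes at 901 to 1000 bp, 761 compact tag-rich peaks and 21 to 30 tags in the comparison class. The summit distance (1.73, 1.54 to 1.88) and the central band (-25.1 points, -29.3 to -20.7) turned round. The share within 10 kb (-0.478 points, -2.47 to 1.47) and the last 5 Mb (-0.0912 points, -2.15 to 1.94) turned round as well. So did 2-fold (-2.65 points, -7.32 to 2.02). The intervals of the last 3 include no difference. The others there were 1.15 for tags per kb, 0.892 for the nearest peak, 2.78 points within 5 kb, 2.84 points for dense windows, 0.776 points for the first 5 Mb and 1.47 points for 3-fold. Without chromosome 14, dense windows gave 4.196 points and the first 5 Mb 0.921.

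No paired analysis was possible because there is 1 Smad4 and 1 input library. Depth was unknown, and no replicate limits the spread between samples.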
